A study of Mus musculus with 2 samples.

Results

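The monocytes of a CD11b-selected brain preparation were described from 172 cell barcodes out of 37387, of which 97 came from the library labelled KO and 75 from the library labelled WT. A barcode was taken as a monocyte when it held at least 1000 UMIs (unique molecular identifiers, each counting 1 captured transcript), at most 10% mitochondrial UMIs and at least 1 UMI of Csf1r, the receptor that maintains the monocyte lineage. In addition, Ly6c2, Ccr2, Plac8, Chil3, Ace and Treml4 together had to reach 0.1% of its UMIs. S100a8 and S100a9 had to stay under 0.5%, Tmem119, P2ry12, Siglech, Gpr34 and Sall1 under 0.2%, and Cldn5 and Flt1 under 0.1%. At most 2 UMIs were allowed from the CD3 and T cell receptor genes Cd3e, Cd3d, Cd3g and Trac, and likewise from the B cell genes Cd79a, Cd79b and Ms4a1. Monocytes were thus chosen by the UMI counts of these genes, so their levels are given only as a description.

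The series compared brains of CD200R1-/- mice (KO) with brains of C57BL/6J wild-type mice (WT), all 18 months old and untreated. CD200R1 is a receptor through which myeloid cells receive an inhibitory signal from the surface protein CD200. Brains were perfused with cold PBS and dissociated enzymatically, CD11b-bearing cells were taken with magnetic particles, and 10x Chromium 3′ v3.1 libraries were made. There was 1 library per group, the number of mice behind each was not stated, and the deleted Cd200r1 exons were not given. With 1 library per group no difference has a replicate check, no test was possible, and all intervals below are exact 95% intervals that cover counting error only.

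Monocytes are made in the bone marrow and circulate in blood. Classical monocytes carry much Ly6C and the chemokine receptor CCR2, which lets them leave the marrow and enter inflamed tissue. In mice they can convert to nonclassical monocytes, which carry little Ly6C, depend on the transcription factor Nr4a1 and crawl along the walls of blood vessels. A healthy brain holds few monocytes, and those found in a perfused brain can lie in vessels, in the borders of the brain or in its tissue, places that these libraries do not tell apart.

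The libraries held 19159 barcodes labelled KO, with a median of 3975 UMIs, and 18228 labelled WT, with a median of 3596.5. After the limits on UMIs and mitochondrial share, 14369 barcodes labelled KO and 13238 labelled WT remained. The libraries shared 103 barcode sequences, none of them among the monocytes. A monocyte labelled KO held a median of 6091 UMIs from 2293 genes, and a monocyte labelled WT 7516 UMIs from 2682 genes. Summed UMIs came to 752346 in monocytes labelled KO and 683561 in those labelled WT.

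Monocytes made up 0.675% (0.548 to 0.823) of the barcodes labelled KO that passed these limits and 0.567% (0.446 to 0.710) of those labelled WT. The ratio was 1.19 with a counting interval of 0.872 to 1.63, which includes 1. Transcripts of other brain cells differed between the libraries too. The choroid plexus markers summed to 7197 CPM (counts per 1000000 UMIs) in the monocytes labelled KO and 2532 CPM in those labelled WT, nearly all of it Ttr, the thyroid hormone carrier secreted by choroid plexus epithelium, with 5239 UMIs against 1675. All 5 choroid plexus genes in the files were detected in both libraries, they exceeded 0.5% of UMIs in 41 of 97 barcodes and in 7 of 75, and in 1 barcode labelled KO they reached 44.2%. Without barcodes holding at least 0.5% of UMIs in markers of mural, glial, choroid plexus, fibroblast, platelet and erythroid cells, 46 monocytes labelled KO (0.320%) and 61 labelled WT (0.461%) remained, and the ratio was 0.695. The direction of the share thus turned without these barcodes.

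The defining genes of monocytes were present. Ly6c2 had a UMI in 54 of 97 barcodes labelled KO and 23 of 75 labelled WT. In microglia of these libraries, with median depths of 6645 and 7693 UMIs, it had one in 0.918% and 0.397%. Microglia were required to hold under 0.1% of UMIs in the 6 monocyte genes, so these shares were partly set by definition. The summed level of Ly6c2 in monocytes was 2197 CPM (2092 to 2306) labelled KO and 617 CPM (560 to 679) labelled WT. A barcode held at most 147 and 44 of its UMIs. Plac8 stood at 2801 and 1211 CPM, Chil3 at 1186 and 594 CPM, Ccr2 at 404 and 373 CPM, Ace at 163 and 224 CPM and Treml4 at 109 and 127 CPM. The classical-type genes Ly6c2 and Chil3 and the shared gene Plac8 were thus higher in the library labelled KO, Ace lower, and Ccr2 and Treml4 within counting error. The rule selected on these genes, so this only describes the members, and 1 barcode held 281 of the 892 Chil3 UMIs labelled KO. Plac8 was found in 83 and 66 barcodes and led the sum of the 6 genes in 60 and 41 of them. Lyz2, the lysozyme gene of myeloid cells, stood at 7126 and 6661 CPM. Itgam, which encodes the CD11b used in the selection, stood at 182 and 193 CPM. The T cell genes Cd3e, Cd3d, Cd3g and Trac were at 0 in both libraries, and the summed border macrophage markers were at 74.4 CPM in the library labelled KO and 189 CPM in the library labelled WT. Microglia markers summed to 2277 and 1914 CPM and neutrophil markers to 207 and 309 CPM. Gzma, a granule protease of cytotoxic lymphocytes, had 105 UMIs in 3 barcodes labelled KO and 0 labelled WT. At the 0.1% threshold, the 3 lowest barcodes inside held 0.1002%, 0.101% and 0.103% in the library labelled KO and 0.103%, 0.105% and 0.106% in the library labelled WT, while the nearest outside held 0.0990% and 0.0999%.

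Monocytes were split into a range with more and a range with less of the nonclassical genes. Nonclassical genes other than Cx3cr1, 19 in all and among them Nr4a1, the scavenger receptor Cd36, the Fc receptor Fcgr4 and the sialomucin Spn (CD43), reached at least 0.3% of UMIs in 49 of 97 barcodes labelled KO (50.5%, 40.2 to 60.8) and in 40 of 75 labelled WT (53.3%, 41.4 to 65.0). Their median was 1.26% and 1.303% of UMIs in these nonclassical-gene-high barcodes, against 0.0919% and 0.117% in the rest. Around the limit, the library labelled KO had members on both sides without a wide gap, at 0.276% and 0.335%, while the nearest ones labelled WT lay at 0.234% and 0.745%. Of the barcodes between 0.3% and 1%, 17 were labelled KO and 4 WT, and 32 and 36 reached 1% or more. The limit of 0.3% was set after the values were seen, and the ranges are not cell types found by clustering.

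Ly6c2 lay differently across these ranges in the libraries. In the library labelled KO, 22 of 49 nonclassical-gene-high barcodes had a Ly6c2 UMI, with 401 UMIs in all and at most 46 in a barcode. In the library labelled WT, 2 of 40 had 1, with 2 UMIs in all. Most of the UMIs labelled KO lay near the limit. The 17 barcodes labelled KO between 0.3% and 1% held 342 of them, in 12 barcodes, and the 4 labelled WT held 0. At 1% or more, Ly6c2 had 59 UMIs in 10 of 32 barcodes labelled KO and 2 UMIs in 2 of 36 labelled WT. After each barcode was thinned to 1000 UMIs the numbers over the whole range were 15 of 49 and 0 of 40. By 3 counts of 40, this 0 allows a share of up to 7.5% of thinned barcodes with a UMI, and it does not limit the cells that express the gene. Among nonclassical-gene-low barcodes, Ly6c2 was found in 32 of 48 labelled KO and 21 of 35 labelled WT, with 1252 and 420 UMIs. All 49 and 40 nonclassical-gene-high barcodes also met the rule when Ly6c2 was left out of it, but that sum kept Plac8. With Ly6c2 and Plac8 both left out, 49 members labelled KO and 38 labelled WT remained over all ranges. Ly6c2 differed in neutrophils too, where after thinning it had a UMI in 37.1% of barcodes labelled KO and 12.8% of those labelled WT. Choroid plexus markers stood at 4933 and 3786 CPM in the nonclassical-gene-high barcodes and at 8480 and 1762 CPM in the low ones, and without barcodes high in non-myeloid markers Ly6c2 was found in 11 of 17 nonclassical-gene-high barcodes labelled KO and 2 of 32 labelled WT. Ly6c1, a near-identical neighbour that can share reads with Ly6c2 and was looked at for that reason, had 42 UMIs in the monocytes labelled KO and 41 in those labelled WT.

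**Figure D1:**
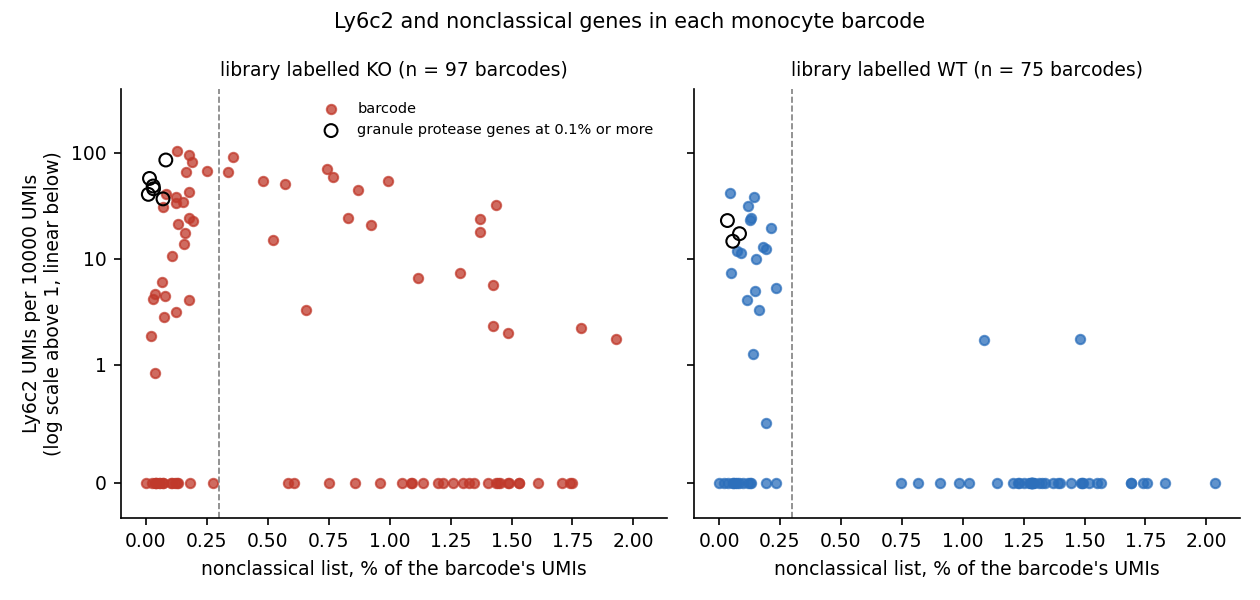
Each point is 1 monocyte barcode, with the share of its UMIs in 19 nonclassical genes on the x axis (percent) and its Ly6c2 UMIs per 10000 UMIs on the y axis (logarithmic above 1), for the libraries labelled KO (left) and WT (right). The dashed line marks 0.3%. Right of it, 22 of 49 barcodes labelled KO and 2 of 40 labelled WT lie above 0, and the open circles, with granule protease genes at 0.1% or more, all lie left of it.

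Other genes of classical monocytes differed to unlike degrees in the nonclassical-gene-high barcodes. Ccr2 had a UMI in 15 of 49 barcodes labelled KO and 2 of 40 labelled WT. Chil3, a secreted chitinase-like protein, had one in 21 and 7. Ccr2, Chil3 and Plac8 are genes of the rule, so their counts only describe the members. F13a1, a coagulation factor subunit, was found in 8 and 4, and Fn1, fibronectin, in 4 and 3. At 1% or more of nonclassical genes, Ccr2 had a UMI in 6 of 32 and 1 of 36 barcodes, and Chil3 in 9 and 6. Plac8 was present in 48 of 49 and 40 of 40 of them, with a median of 12 UMIs labelled KO and 7.5 labelled WT. Ly6c2, Ccr2 and Chil3 were compared with Ace and Treml4 within each thinned barcode. The first sum was the larger in 53.6% of monocytes labelled KO and 33.3% of those labelled WT, a difference of 20.3 percentage points. All of these are genes of the rule, so this share only describes the members. A different measure, the share of monocytes in the nonclassical-gene-low range, differed by 2.82 points.

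Ly6c2-type barcodes (Ly6c2, Ccr2 and Chil3 above Ace and Treml4, here in unthinned counts) were set beside Ace/Treml4-type barcodes within each library. There were 65 Ly6c2-type and 29 Ace/Treml4-type barcodes labelled KO and 34 and 40 labelled WT. Ly6c2 itself had a UMI in 50 of the 65 and 21 of the 34, so the name does not mean that each barcode held it. Choroid plexus markers stood at 23064 CPM in Ace/Treml4-type barcodes labelled KO and 3367 CPM in those labelled WT. In Ly6c2-type barcodes they stood at 3247 and 1718 CPM. The part of these transcripts in the values below was not tested. Of 4458 genes with at least 50 UMIs, 225 were at least 2-fold higher in Ly6c2-type barcodes in both libraries (5.05%) and 249 at least 2-fold lower in both (5.59%). The genes that made the split are not counted as findings. Besides them, F13a1 stood at 994 CPM in Ly6c2-type and 0 in Ace/Treml4-type barcodes labelled KO, and at 1197 and 66.3 CPM in those labelled WT. Fn1 stood at 274 and 6.75 CPM labelled KO and at 796 and 11.7 CPM labelled WT. S100a10, the annexin partner that binds plasminogen, stood at 382 and 20.2 CPM labelled KO and at 566 and 23.4 CPM labelled WT. Slamf7, a receptor of the SLAM family, had 67 UMIs in 23 Ly6c2-type barcodes labelled KO, 54 UMIs in 15 labelled WT and none in Ace/Treml4-type barcodes. MHC class II genes went the same way: 10 of 12 were at least 2-fold higher in Ly6c2-type barcodes in both libraries, and 13 of 15 cell cycle genes were too. So were 7 of 8 dendritic cell markers, with median log2 ratios of 1.51 labelled KO and 2.89 labelled WT. Barcodes with at least 0.1% of UMIs in dendritic cell genes, all of them Ly6c2-type, held 9.57% and 16.4% of the monocyte UMIs. Those with at least 0.1% in cycle genes, 7 labelled KO and 5 labelled WT, were all Ly6c2-type too and held 14.6% and 17.6%. The part of either kind in these counts was not tested.

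On the other side stood receptors and lipid genes of nonclassical monocytes, which were lower in Ly6c2-type barcodes. All 20 genes of the nonclassical list were at least 2-fold lower there in both libraries, with medians of -2.16 labelled KO and -3.58 labelled WT. Cd300e, an activating receptor, stood at 16.9 CPM in Ly6c2-type and 331 CPM in Ace/Treml4-type barcodes labelled KO, and at 0 and 394 CPM in those labelled WT. Fcgr4 stood at 32.1 and 391 CPM labelled KO and 7.11 and 386 CPM labelled WT. Cd274, which encodes PD-L1, stood at 33.8 and 351 CPM labelled KO and 4.74 and 242 CPM labelled WT. Pparg, a nuclear receptor of lipid metabolism, stood at 42.2 and 378 CPM labelled KO and 2.37 and 679 CPM labelled WT. S1pr5, a sphingosine phosphate receptor that nonclassical monocytes need to leave the marrow, had 5 and 20 UMIs labelled KO and 0 and 40 UMIs labelled WT. Pilra, Dnah12, Eno3, Dusp16, Fabp4, Mdm1, Cd300ld and Cd36 lay on the same side.

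**Figure D2:**
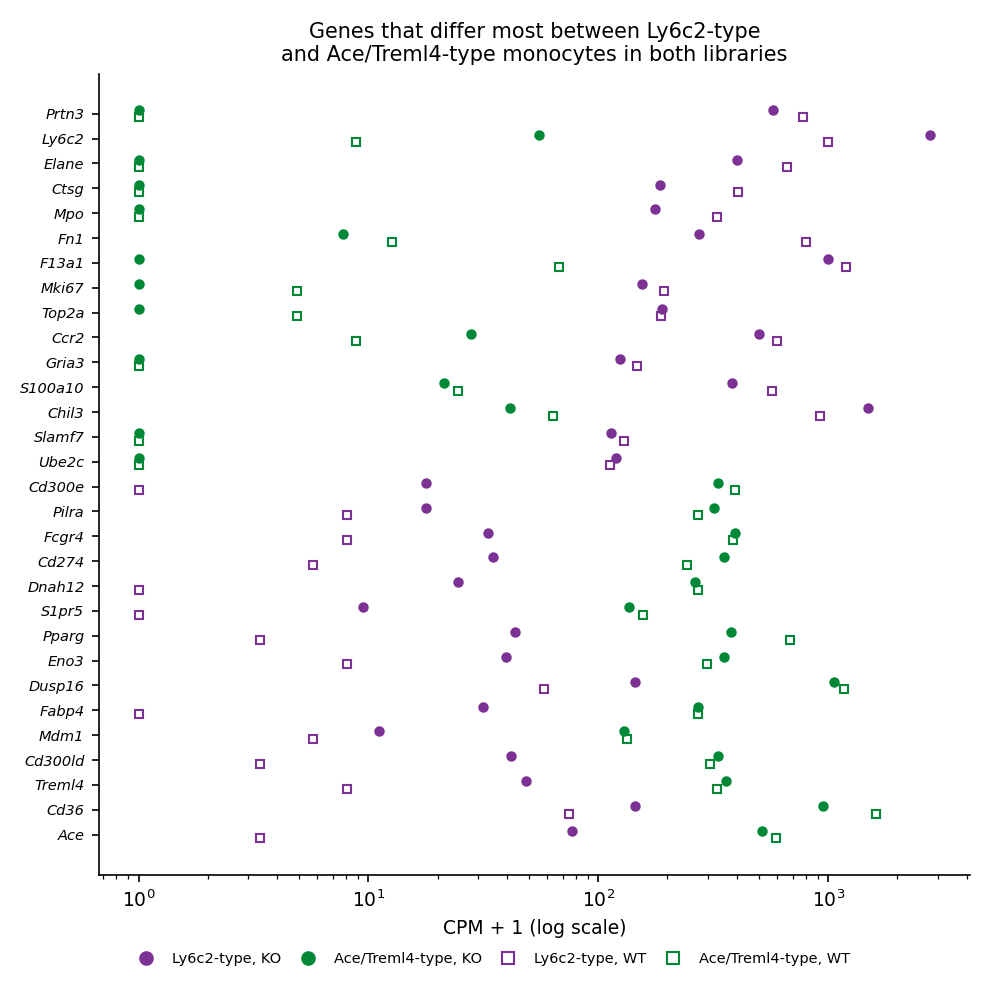
CPM + 1 on a logarithmic x axis for the 15 genes highest and the 15 lowest in Ly6c2-type over Ace/Treml4-type monocytes by the smaller of both libraries' ratios, with filled circles for the library labelled KO and open squares for WT, in purple for Ly6c2-type and green for Ace/Treml4-type. Among the lower genes, Cd300e lies at 16.9 CPM in Ly6c2-type and 331 CPM in Ace/Treml4-type barcodes labelled KO, and at 0 and 394 CPM in those labelled WT.

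A few monocytes carried the granule proteases of marrow progenitors. Mpo, Elane, Prtn3 and Ctsg, which encode myeloperoxidase and the serine proteases packed into primary granules, together reached 0.1% of UMIs in 6 of 97 barcodes labelled KO and 3 of 75 labelled WT. These barcodes held 14.2% and 10.3% of all monocyte UMIs, and all 9 were nonclassical-gene-low. Cycle genes reached 0.1% in 7 and 5 barcodes, of which 4 and 2 also had granule protease genes. Dendritic cell genes such as Flt3 reached 0.1% in 6 and 7 barcodes, none of which had granule protease genes at that level. The rule did not remove these barcodes, and all of them were Ly6c2-type.

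Interferon-induced genes were higher in the monocytes labelled KO throughout. Of 4492 genes with at least 50 UMIs in the monocytes, 99 were at least 2-fold higher in the library labelled KO (2.2%) and 29 at least 2-fold lower (0.646%), on the scale of log2(CPM + 10). The interferon response list supplied 28 of the 99. Of its 35 genes 34 had at least 20 UMIs, and all 34 were at least 25% higher, where 18% of the 7458 genes with that many UMIs were (19.8% were at least 20% lower), and their median log2 ratio was 1.79, against -0.02 over all these genes.

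Rsad2 and genes of the Oas and Ifit families were among the highest of the list. Rsad2 (viperin, which makes a chain-terminating nucleotide) had 77 UMIs in 33 barcodes labelled KO and 2 in 2 labelled WT. Its ratio was 35.0 (9.36 to 294). Oas3, which senses double-stranded RNA and activates RNase L, had 94 UMIs in 47 barcodes against 5 in 4, a ratio of 17.1 (7.07 to 53.8). Oasl1 had 49 UMIs in 26 barcodes against 1, a ratio of 44.5 (7.63 to 1794), and Oasl2 had 141 UMIs in 61 barcodes against 9 in 7, a ratio of 14.2 (7.29 to 31.8). Ifit2 had 90 and 9 UMIs, a ratio of 9.09 (4.58 to 20.5). Each of these was spread over many barcodes, none holding over 19.5% of the UMIs labelled KO of Rsad2, Oas3, Oasl1, Oasl2 or Ifit2.

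Signalling members of the response were higher too. Isg15, a ubiquitin-like modifier, stood at 280 CPM (244 to 321) labelled KO and 33.6 CPM (21.3 to 50.5) labelled WT. Irf7, the transcription factor that amplifies the response, stood at 391 CPM (347 to 438) and 62.9 CPM (45.5 to 84.7), with a UMI in 75 of 97 and 17 of 75 barcodes. Rtp4, a chaperone of receptors, had 99 UMIs against 6. Ifi27l2a had the most UMIs of the list in the library labelled KO, with 2787 UMIs in 94 barcodes labelled KO and 368 in 49 labelled WT, or 3704 and 538 CPM. Among the smaller differences of the list were Ly6e at a log2 ratio of 0.61 and the RNA sensor Ddx58 at 0.56 (-0.09 to 1.20), whose interval spans 0.

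The promoters of the 4 list members with the highest ratios on the log2(CPM + 10) scale that have an entry in RefSeq (GRCm38.p6) are shown because the interferon-activated complex ISGF3 binds elements made of GAAA, any 2 bases and GAAA again. The 250 bases before each gene start are printed 5′ to 3′ on the gene's strand, with each match to these letters or their reverse complement (TTTC, any 2 bases, TTTC) in capitals. The windows are those of Rsad2 at chr12:26456453-26456702 (minus strand), Oasl2 at chr5:114896684-114896933 (plus), Oas3 at chr5:120777660-120777909 (minus) and Isg15 at chr4:156200819-156201068 (minus), while Rtp4 and Ifi27l2a are named only.
Rsad2: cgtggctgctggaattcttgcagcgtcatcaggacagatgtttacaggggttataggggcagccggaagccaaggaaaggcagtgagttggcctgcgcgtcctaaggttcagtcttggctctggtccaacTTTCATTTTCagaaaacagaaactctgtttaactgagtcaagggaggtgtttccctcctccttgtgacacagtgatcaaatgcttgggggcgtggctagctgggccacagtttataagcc
Oasl2: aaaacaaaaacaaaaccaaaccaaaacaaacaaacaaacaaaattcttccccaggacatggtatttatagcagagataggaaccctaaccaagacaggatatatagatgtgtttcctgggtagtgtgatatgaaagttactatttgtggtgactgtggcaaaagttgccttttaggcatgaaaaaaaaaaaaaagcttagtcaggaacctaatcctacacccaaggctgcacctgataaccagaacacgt
Oas3: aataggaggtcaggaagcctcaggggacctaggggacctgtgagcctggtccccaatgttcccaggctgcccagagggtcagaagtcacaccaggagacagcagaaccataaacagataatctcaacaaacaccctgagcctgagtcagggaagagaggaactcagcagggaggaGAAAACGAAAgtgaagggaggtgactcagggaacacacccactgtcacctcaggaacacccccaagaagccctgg
Isg15: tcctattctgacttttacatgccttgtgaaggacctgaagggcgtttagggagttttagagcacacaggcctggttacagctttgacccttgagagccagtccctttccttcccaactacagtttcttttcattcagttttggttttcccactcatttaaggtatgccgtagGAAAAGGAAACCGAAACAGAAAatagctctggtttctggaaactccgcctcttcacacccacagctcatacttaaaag
Rsad2 and Oas3 had 1 match each, starting 120 and 75 bases before the gene start. Isg15 had 3 that overlap in 1 run starting 78 bases before it, and Oasl2 had 0 in this window. Such letters were found in 11 of the 26 list genes with an entry (42.3%) and in 821 of 27025 promoters of that length (3.04%). A match describes letters, not binding.

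The interferon genes were spread over most monocytes labelled KO. With each barcode thinned to 1000 UMIs, the list had a median of 16 UMIs (0 to 55) per barcode labelled KO and of 4 UMIs (0 to 17) per barcode labelled WT. At least 5 UMIs were found in 88 of 97 and 37 of 75 barcodes. In nonclassical-gene-high barcodes the medians were 19 and 4.5 UMIs, with quartiles of 16 to 24 and 3 to 7 that do not overlap. In nonclassical-gene-low barcodes they were 11.5 and 4 UMIs. Without Ifi27l2a the medians over all monocytes were 13 and 4 UMIs.

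**Figure D3:**
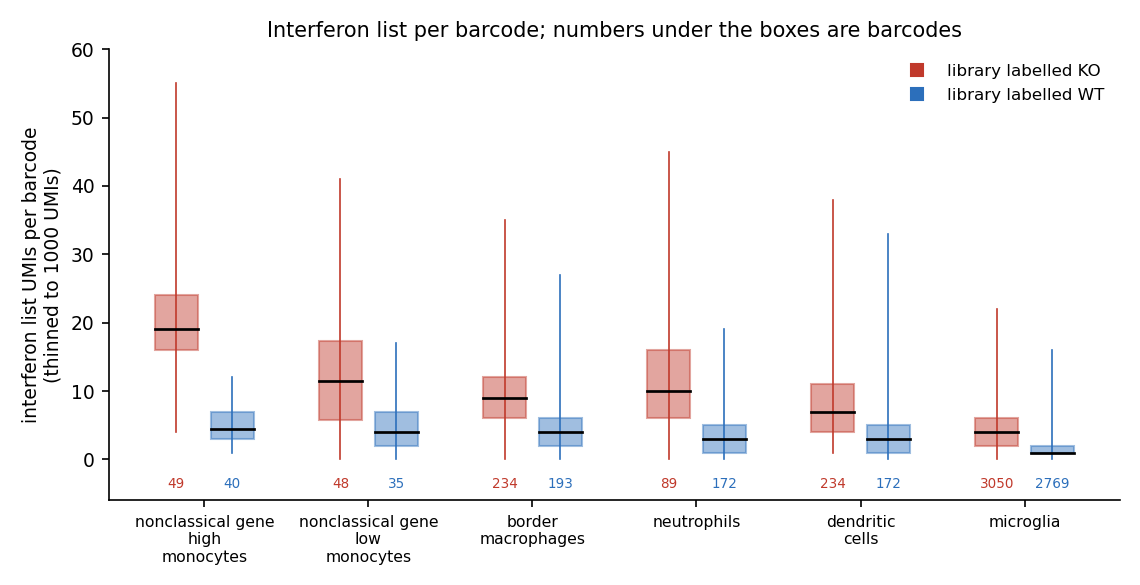
Interferon list UMIs per barcode after thinning to 1000 UMIs on the y axis, with the library labelled KO left of WT in each population; boxes span the quartiles, black lines are medians and whiskers reach the lowest and highest barcode. Nonclassical-gene-high monocytes labelled KO have a median of 19 against 4.5 labelled WT, and microglia of 4 against 1.

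The same list was set beside other cells of the same libraries, which share these libraries and so are no independent check. Its median log2 ratio was 2.35 in nonclassical-gene-high monocytes, with 30 of 31 measured genes at least 25% higher, where 22.5% of all measured genes were. In the 32 and 36 barcodes with 1% or more of nonclassical genes it was 2.41 (27 of 27, against 22.7%). It was 1.42 in nonclassical-gene-low monocytes (32 of 32, against 23.6%). In microglia it was 1.18 (31 of 34 and 0 lower, against 1.24% and 1.47%), in border macrophages 0.92 (33 of 33, against 12.7%), in neutrophils 1.26 (33 of 34, against 16.9%) and in dendritic cells 1.15 (33 of 34, against 18.5%). After removal of barcodes with at least 0.5% of non-myeloid marker UMIs the medians were 1.62 over all monocytes, 2.35 in the high range and 1.5 in the low range. Whether the ranges differ beyond mouse-to-mouse spread was not testable with 1 library per group.

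Genes outside the list also stood high. Slfn4, a Schlafen gene that interferon induces in mouse myeloid cells, had 82 UMIs in 27 barcodes labelled KO and 0 labelled WT. The exact interval of its ratio starts at 19.7, and the ratio is 24.8 when 3 counts are taken as the floor of the library labelled WT. Ms4a4c stood at 509 CPM labelled KO and 74.6 CPM labelled WT, and the DNA-sensing family genes Ifi206 and Ifi213 had 63 and 144 UMIs against 3 and 16. Pde7b, a cyclic AMP phosphodiesterase, stood at 444 CPM (398 to 494) and 71.7 CPM (53.0 to 94.8), with 59 and 20 barcodes, and Ly6a, the Sca-1 surface protein, at 276 and 46.8 CPM. In nonclassical-gene-high barcodes Ms4a4c stood at 702 CPM labelled KO and 34.6 CPM labelled WT, and Pde7b at 555 and 46.1 CPM. In microglia both were low, with Pde7b at 6.27 and 3.79 CPM. Several of these families (Schlafen, Ifi200, Oas and Ly6 genes) have close copies, so their split among copies is uncertain.

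MHC class I genes were higher by smaller amounts. Of 18 genes, 14 were at least 25% higher and 0 lower, where 18% and 19.8% of all genes were, with a median log2 ratio of 0.55. H2-Q7, a nonclassical class I chain with near-identical copies, stood at 185 and 67.3 CPM labelled KO and WT, and Nlrc5, the transactivator of class I genes, at 97.0 and 42.4 CPM. Tap1, a peptide transporter subunit, was at 110 and 87.8 CPM, and the immunoproteasome subunits Psmb10 and Psmb9 at log2 ratios of 0.31 and 0.12, with intervals that span 0.

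MHC class II genes, which present peptides to CD4 T cells, had a median log2 ratio of 0.18 over all monocytes. Of 12 genes 3 were at least 25% higher and 0 lower, where 18% and 19.8% of all genes were. H2-Aa had 1686 UMIs labelled KO and 1603 labelled WT, and the highest ratios, H2-Oa at 0.65 and Ciita, the class II transactivator, at 0.59, had intervals that span 0. In nonclassical-gene-high barcodes H2-Aa had 23 UMIs in 7 barcodes labelled KO and 118 in 12 labelled WT, of which 39 came from 1 barcode, and the median over 7 measured genes was -1.11, with 3 higher and 4 lower, where 22.5% and 31.7% of all genes were. At 1% or more of nonclassical genes the median was 0.07, with 2 of 7 higher and 2 lower against 22.7% and 33.5% of all genes, and H2-Aa had 9 and 19 UMIs, so the value of the high range rested on the barcodes below 1%. In nonclassical-gene-low barcodes the median was 0.16, with 2 of 12 higher and 0 lower, where 23.6% and 18.4% of all genes were, and without granule protease or dendritic barcodes it was 0.77, with 8 of 10 higher and 1 lower, against 25.4% and 25.3% of all genes. Cd74, the invariant chain, looked at after these values were seen, had 191 and 398 UMIs in the high range.

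Nonclassical genes were lower in the monocytes labelled KO, and most by little. Of the 20 genes 12 were at least 20% lower and 4 at least 25% higher, where 19.8% and 18% of all genes were, with a median log2 ratio of -0.44. Cd36 stood at 303 CPM (265 to 345) labelled KO and 657 CPM (597 to 721) labelled WT, Cd300e at 83.7 and 149 CPM and the integrin Itgax at 35.9 and 67.3 CPM. Cx3cr1, the fractalkine receptor, was at 445 and 328 CPM, Gngt2, a G protein subunit, at 700 and 543 CPM and Ear2, an RNase, at 324 and 253 CPM. Within nonclassical-gene-high barcodes, a range cut by these genes other than Cx3cr1, the count was the same, 12 lower and 4 higher of 20. The median in this range was -0.41, and 31.7% of all genes were lower and 22.5% higher. There Cd36 had 188 UMIs in 40 of 49 barcodes labelled KO and 418 in 36 of 40 labelled WT, and Pparg had 89 and 178 UMIs. Of the barcodes in this range, 17 labelled KO and 4 labelled WT lay below 1%. At 1% or more the median was -0.19, with 4 higher and 4 lower of 20, against 22.7% and 33.5% of all genes. Without barcodes high in non-myeloid markers the list's median was -0.95 over all monocytes and -0.57 in the high range. Of the barcodes that remained, 17 of 46 labelled KO and 32 of 61 labelled WT were in the high range. The part of this difference in the median was not tested. With Ly6c2-type barcodes alone the list's median was 1.20.

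Over all monocytes, more of the classical genes apart from those of the rule were lower than higher, and their direction varied with the range. Of 17 measured, 2 were at least 25% higher and 7 at least 20% lower, where 18% and 19.8% of all genes were, with a median of -0.09. The 2 were Ms4a4c and Hp, haptoglobin, at 513 and 301 CPM. Thbs1, thrombospondin, had 15 UMIs in 6 barcodes labelled KO and 93 in 8 labelled WT, and Fn1 163 in 26 and 339 in 16. Both lay in the nonclassical-gene-low range, where Fn1 had 157 and 336 UMIs and Thbs1 15 and 93. Smpdl3a stood at 209 and 303 CPM. In nonclassical-gene-low barcodes without granule protease or dendritic barcodes, 1 of 17 classical genes was higher and 13 were lower, with a median of -0.45. There 25.4% of all genes were higher and 25.3% lower. In nonclassical-gene-high barcodes 6 of 12 were higher and 3 lower, where 22.5% and 31.7% of all genes were.

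**Figure D4:**
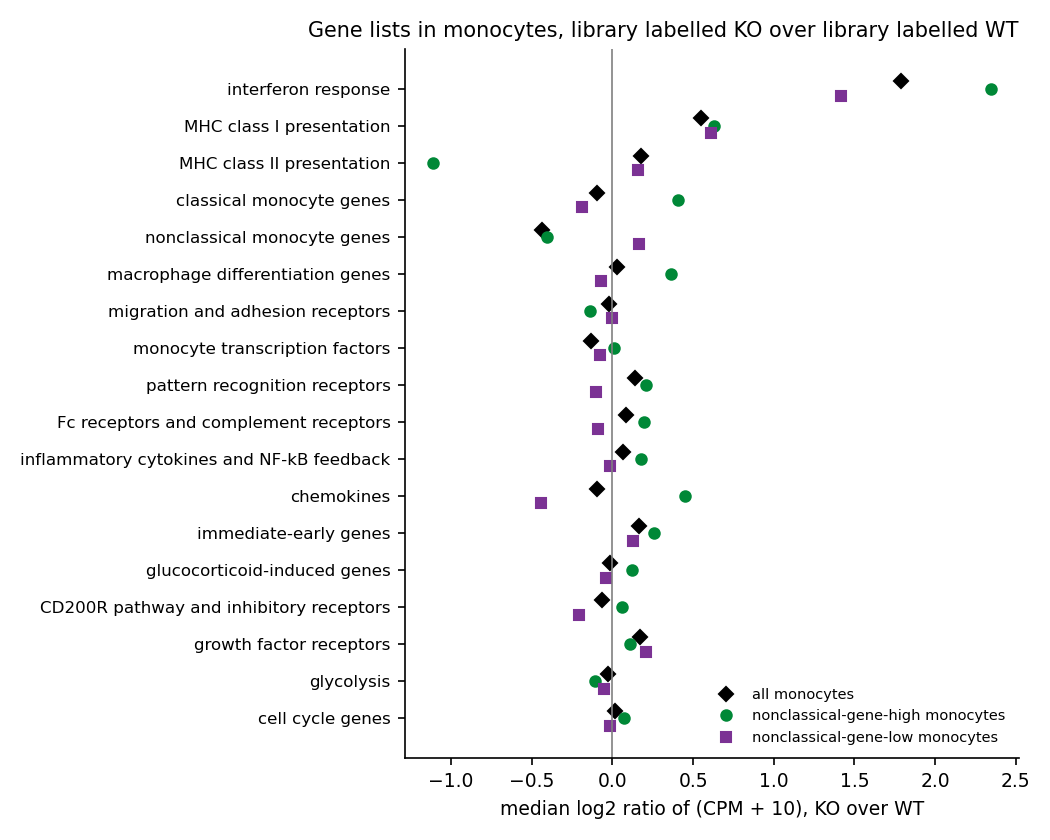
Median log2 ratio of (CPM + 10), KO over WT, for 18 gene lists in all monocytes (diamonds) and in the nonclassical-gene-high (circles) and nonclassical-gene-low (squares) ranges. The interferon response lies furthest to the right in each, at 1.79, 2.35 and 1.42, and MHC class II lies at -1.11 in the high range and 0.16 in the low range.

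Receptors on the monocyte surface differed singly. The counts that follow, here and for the other lists, are of genes at least 25% higher or 20% lower, as 18% and 19.8% of all genes were. Fcgr1, the high-affinity receptor for IgG, was the highest of 10 Fc and complement receptors, with 167 CPM (57 barcodes) labelled KO and 58.5 CPM (21 barcodes) labelled WT, a ratio of 2.86 (1.99 to 4.19), while 2 of the 10 were higher and 2 lower. In nonclassical-gene-high barcodes Fcgr1 stood at 243 and 34.6 CPM, with 66 and 9 UMIs. In microglia it stood at 280 and 204 CPM. Of 18 migration and adhesion receptors 3 were higher and 5 lower. Itga4, the integrin chain that binds VCAM-1, was lowest, at 424 and 799 CPM, a ratio of 0.531 (0.461 to 0.611). In nonclassical-gene-high barcodes Itga4 stood at 673 and 1660 CPM, and in the low range at 283 and 269 CPM. Of 12 pattern recognition receptors 3 were higher and 3 lower, with Cd14, the co-receptor for lipopolysaccharide, lowest at 90.4 and 159 CPM and Tlr13 next at 61.1 and 93.6 CPM. Among 7 growth factor receptors 1 was higher (Il3ra, 20 and 11 UMIs) and 0 lower, and Csf1r stood at 506 and 499 CPM. The median of 14 macrophage differentiation genes was 0.03, with 2 higher and 2 lower. They include Mrc1, the mannose receptor, with 16 and 56 UMIs.

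Transcription factors and stress genes differed singly too. Of 14 monocyte transcription factors, again beside 18% higher and 19.8% lower of all genes, Klf2, a factor of quiescence, was the 1 higher, at 678 and 417 CPM. The 2 lower were Nr4a1, at 514 and 742 CPM, and Bcl6, at 190 and 269 CPM. Of 19 immediate-early genes 7 were higher, among them Atf3, Fos and Egr1 at log2 ratios of 0.47, 0.42 and 0.40, and 3 lower, among them the heat shock gene Hspa1b at -0.72. Of 14 inflammatory and NF-kB genes 3 were higher, Icam1, Tnf and Ptgs2 (1 barcode held 81.0% of its 21 UMIs labelled KO), and 2 lower, Tnfaip3 and Il1b. Il1b stood at 189 and 269 CPM, a ratio of 0.701 (0.559 to 0.878). Of 13 glucocorticoid-induced genes 2 were higher and 4 lower. Zbtb16 was the lowest of them, with 39 UMIs in 23 barcodes labelled KO and 109 in 47 labelled WT, a ratio of 0.325 (0.219 to 0.473). In nonclassical-gene-high barcodes it was found in 17 of 49 and 33 of 40, with 22 and 87 UMIs, and in microglia it stood at 8.67 and 41.3 CPM. Of 17 glycolysis genes 0 were higher and 1 lower, and of 15 cell cycle genes 3 were higher and 3 lower.

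Chemokines rested on few barcodes. Ccl5 had 87 UMIs labelled KO in 5 barcodes, 1 of which held 65.5% of them, against 15 UMIs in 3 labelled WT. All 38 Cxcl9 UMIs labelled WT came from 1 barcode, against 1 UMI labelled KO. Ccl2 had 50 and 17 UMIs in 15 and 8 barcodes, and 1 barcode held 50% of those labelled KO. Of 9 chemokines measured 3 were higher and 3 lower, where 18% and 19.8% of all genes were.

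The lowest genes of all were mixed in kind. After Mrc1 and Zbtb16 came Nr4a2, an orphan nuclear receptor, with 30 UMIs labelled KO and 83 labelled WT, Cpd, a carboxypeptidase, with 15 and 45, Cwc27 with 22 and 61, and Socs3, a feedback inhibitor of cytokine signalling, with 23 and 57. Lars2, a mitochondrial tRNA ligase, had 131 UMIs in 69 barcodes labelled KO and 271 in 65 labelled WT, and Ptpn12 had 78 in 41 and 167 in 49. S100a8 (43 and 95 UMIs) and the histone gene Hist1h2ap (96 and 200 UMIs) rested on single barcodes, which held 67.4% and 53.5% of their UMIs labelled WT. Krt80, Cd36, Fn1, Setbp1 and Ylpm1 complete the 15 lowest.

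Cd200r1 itself had 7 UMIs in 7 monocytes labelled KO and 12 in 10 labelled WT, a ratio of 0.530 (0.177 to 1.46). Since the deleted exons are not given, a 3′ tag count checks nothing about the genotype, and the libraries are called by their labels. Cd200, its ligand, had 18 and 7 UMIs, a ratio of 2.34 (0.931 to 6.62). Of 12 measured genes of the CD200R pathway and inhibitory receptors, 1 was higher (Cd200) and 2 lower (Dok1, an adaptor of inhibitory signalling, with 22 and 29 UMIs, and Cd300a, at 278 and 376 CPM), where 18% and 19.8% of all genes were. At this depth no difference in Cd200r1 was detectable.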

How the data were processed

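RNA was counted in single cells from 2 libraries, 1 per genotype. The authors deposited unnormalized UMI counts for each gene in each barcode, and per the file headers Cell Ranger 7.0.1 wrote them. The submitters' processing notes list STAR, Seurat 3.1.1 and GRCm38/mm10 but give neither parameters nor an annotation release. From these counts, the rule for monocytes was applied in each library. UMIs were summed over monocytes per library and given as CPM, with exact Poisson intervals and exact conditional intervals for ratios at 95% confidence. Log2 ratios used CPM + 10. Genes needed at least 50 UMIs over both libraries to be counted at 2-fold, and list genes at least 20 UMIs, counted when at least 25% higher or 20% lower. Shares have Clopper-Pearson intervals. No test was run, since each group has 1 library. Doublets were called with Scrublet (scanpy 1.11.5, expected rate of 0.8% per 1000 barcodes) and kept. It called 4.63% of barcodes labelled KO and 3.14% labelled WT, below the expected 15.3% and 14.6%, so doublets remain, and 2 and 1 of the monocytes were called.

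Comparison cells passed the same limits on UMIs and mitochondrial share. Microglia had at least 0.5% of UMIs in the 5 microglial genes of the rule and under 0.1% in its 6 monocyte genes. Border macrophages had at least 0.3% in Mrc1, Cd163, Lyve1, Folr2, Stab1 and Ms4a7. They also held under 0.2% in the microglial genes and under 0.1% in the monocyte genes. Dendritic cells had at least 0.05% in Flt3, Zbtb46, Xcr1, Clec9a, Cd209a and Klk1 and under 0.5% in S100a8 and S100a9. Neutrophils had at least 0.5% in S100a8 and S100a9. None of these was a monocyte by the rule. Named genes were the 15 highest and 15 lowest ratios detected in at least 10 monocytes of the higher library (without mitochondrial, ribosomal, haemoglobin, sex-specific, immunoglobulin and unnamed genes), the genes of the rule, the 3 highest and 3 lowest of each list, and the 15 genes each way between Ly6c2-type and Ace/Treml4-type barcodes. Others are said to be chosen after their values were seen or are examples from the marker lists. The members and lists were chosen with earlier results of these data known. Mx1 and Clec7a were not analysed here. A few genes that these rules name are not reported here. The ratios were checked on simulated counts. Promoters came from RefSeq (GRCm38.p6). Python 3.11.15, numpy 2.4.6, scipy 1.17.1, pandas 2.3.3 and matplotlib 3.10.9 were used.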

Additional observations from a re-analysis of the deposited data

Results flagged for a closer look

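Median log2 ratios of MHC class II genes had opposite signs in the ranges of the monocytes. The median, KO over WT, was -1.11 in nonclassical-gene-high barcodes (7 genes measured, 3 higher and 4 lower, where 22.5% and 31.7% of all genes were) and 0.16 in nonclassical-gene-low barcodes (12 genes, 2 higher and 0 lower, against 23.6% and 18.4%). In the 32 barcodes labelled KO and 36 labelled WT with 1% or more of nonclassical genes it was 0.07, so the opposite sign was lost there. In the high range H2-Aa had 23 UMIs labelled KO and 118 labelled WT, and 1 barcode held 39 of the 118. The difference between the ranges was not tested, and the part of single barcodes in it was not tested.

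Classical monocyte genes had a median log2 ratio of 0.41 in nonclassical-gene-high barcodes (12 genes measured, 6 higher and 3 lower, where 22.5% and 31.7% of all genes were) and of -0.19 in nonclassical-gene-low barcodes (17 genes, 2 higher and 6 lower, against 23.6% and 18.4%). At 1% or more of nonclassical genes it was 0.16. This difference was not tested either. Ms4a4c, the highest gene of the list, stood at 702 CPM labelled KO and 34.6 CPM labelled WT in the high range and at 400 and 99.2 CPM in the low range.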

How the results depend on the processing

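No paired analysis was possible because the labels give no replicate numbers and each group has 1 library. The median log2 ratio of the interferon response was 1.21 to 2.41 over 21 alternatives, its highest in barcodes with 1% or more of nonclassical genes, a limit added after seeing the data. There the MHC class II median was 0.068, 29 genes were 2-fold higher, 47 were 2-fold lower and Hist1h2ap turned to 0.67. The monocyte share ratio turned to 0.695 without barcodes high in non-myeloid markers, where the nonclassical median was -0.95, the MHC class II median 0.30 and 55 genes were 2-fold lower. MHC class II was 0.29 without Scrublet calls, 0.64 without border macrophage or dendritic barcodes, 0.033 with the sum without Ly6c2 and Plac8, -0.092 in Ly6c2-type, -1.29 in Ace/Treml4-type and -1.11 in nonclassical-gene-high barcodes (interferon 2.35). The nonclassical median turned to 1.20 in Ly6c2-type and 0.16 in nonclassical-gene-low barcodes, the classical median was 0.41 in the high range and the glucocorticoid median -0.52 in Ace/Treml4-type barcodes. With the share of barcodes under 0.3% in the nonclassical list taken in place of the Ly6c2-type share, the difference was 2.82 points. Genes 2-fold higher numbered 47 with a pseudocount of 50 CPM, 169 with a minimum of 20 UMIs, 233 with none, 17 in thinned cells and 41 in Ace/Treml4-type barcodes. Genes 2-fold lower numbered 46 with a pseudocount of 1 CPM, 5 with 50 CPM, 67 with a minimum of 20 UMIs, 107 with none, 46 as a mean over cells, 9 in thinned cells, 51 in Ace/Treml4-type and 52 in nonclassical-gene-high barcodes. Of the genes named, log2 ratios turned for Hist1h2ap (0.067 at a marker sum of 0.2%, 1.63 without Ly6c2 and Plac8, 0.035 in Ace/Treml4-type, 0.68 in the high range), S100a8 (0.035 thinned, 0.45 without Ly6c2 and Plac8), Krt80 (0.41), Cd36 (0.88) and Setbp1 (0.13) in Ly6c2-type, Socs3 (0.23) and Fn1 (0.57) in the high range, and Cd36 (0.16) and Setbp1 (0.37) in the low range. The cause was not tested. Otherwise, of 630 values for named genes 474 stayed close and 142 shifted with their direction kept, and of 210 for the other lists 203 stayed close and 7 shifted.

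Depth limits single genes: genes near the minimum of 20 UMIs have wide intervals, and 172 barcodes from 2 libraries cannot show mouse-to-mouse spread.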
